A study of Mus musculus with 6 samples.

Results

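The members described here are 114 olfactory receptor genes of the class I cluster on mouse chromosome 7, out of 31319 genes in the deposited counts and 1180 olfactory receptor genes among them. They were taken by name, as every gene called Olfr543 to Olfr692 or Olfr64 to Olfr69 without a suffix, less Olfr556, Olfr558, Olfr571 and Olfr686. These 4 had 28 to 197 counts over the knockdown libraries, against 16 for the highest member, Olfr644, so that leaving them out used knockdown counts. The comparison of the groups over the members is therefore given as a description, with the 4 receptors beside it. Olfr644 lies just inside the rule, with 16 knockdown counts, and Olfr556 just outside it, with 28.

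The libraries came from the main olfactory epithelium of male C57BL/6 mice aged 5 months. Both groups share strain, sex, age and tissue: 3 libraries carry the label miR-200b/a KD, a knockdown of 2 neighbouring microRNAs of the miR-200 family (KD), and 3 the label NC, named as controls in the column headers of the counts. How the knockdown was made, in which cells it acted and what the NC mice received go unstated in the labels. The labels speak of triplicates without tying a library to a mouse. The p-values below therefore rest on differences among libraries, and these could be technical only.

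Olfactory receptors are the odour sensors of olfactory sensory neurons, and each mature neuron expresses 1 allele of 1 receptor gene. Class I receptors are the branch that mammals share with fish and are known for binding water-soluble odorants such as carboxylic acids. In the mouse their genes form a single cluster, and most of their neurons lie in the dorsal zone of the epithelium. A long-range enhancer in the cluster called the J element supports the choice of many of these genes. The transcription factor Bcl11b takes part in the choice between the classes. Class II receptors make up the rest of the family and are spread over many chromosomes.

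The 114 genes lie between 102476579 and 105369355 on chromosome 7 (GRCm38), a stretch of 2.89 Mb. Of these, 112 are annotated as protein-coding and 2 (Olfr664 and Olfr687) as pseudogenes. They are split evenly between the strands (56 on plus, 58 on minus), and the median gap between neighbours is 9 kb. The widest gap, 354 kb between Olfr649 and Olfr651, holds Trim genes. The adult beta-globin genes Hbb-bt and Hbb-bs lie between Olfr67 and Olfr66. The exons of a member add up to a median of 3.10 kb (0.942 to 8.56).

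In the KD libraries the class I members were close to empty. Summed over the 114 genes, the 3 KD libraries held 60, 17 and 148 counts and the 3 NC libraries 2081, 3510 and 1179, here and below in the order of their numbers. Scaled to library totals, that is 3.41, 1.08 and 8.54 counts per 1000000 (CPM) for KD, against 129, 199 and 69.2 for NC. The groups did not overlap, and the highest KD library lay far under the lowest NC library. Group means of 4.35 ± 3.82 (KD) and 132 ± 65.1 CPM (NC; SD, n = 3 each) put KD at 3.28% of NC, or 1.70% without KD-3. Pooled over libraries there were 225 KD counts and 6770 NC counts, and the NC rate was 26.2 to 34.4 times the KD rate (95% exact interval, for counting error alone). In bulk tissue, fewer neurons of a type and less RNA per neuron cannot be told apart.

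Receptors elsewhere in the genome were lower in KD too, by less. The 1050 olfactory receptor genes outside the cluster summed to 1647, 86.9 and 2257 CPM for KD and to 5662, 4446 and 2901 CPM for NC, which put KD at 30.7% of NC. In KD-1 and KD-3 these receptors stood at 38.0% and 52.0% of the NC mean, whereas the class I members stood at 2.58% and 6.45%. In KD-2 both were nearly gone, at 2.00% and 0.818%. Per 1000 counts of receptors outside the cluster, the members had 2.07, 12.5 and 3.79 for KD and 22.7, 44.8 and 23.8 for NC. These member ratios did not overlap either. KD-2, with only 17 member counts behind its value, was the closest of the KD libraries to NC. On this scale the 4 left-out receptors had 4.70, 18.3 and 7.37 for KD and 2.67, 3.28 and 3.34 for NC. Adding them would put KD-2 within the range of NC, so the lack of overlap depends on leaving them out. No p-value is given for these sums, since the members were chosen with results known.

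**Figure D1:**
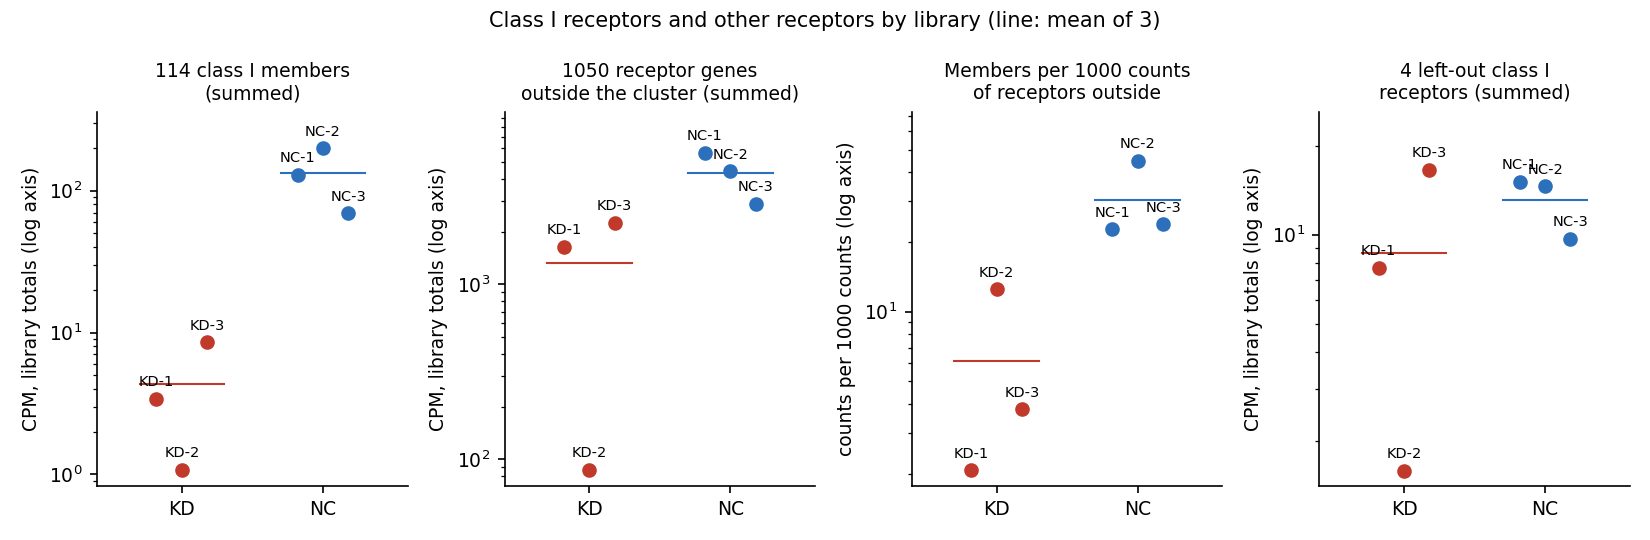
Summed CPM of the 114 class I members, of 1050 receptor genes outside the cluster, the members' counts per 1000 counts of those receptors, and summed CPM of the 4 left-out class I receptors, by library, on log axes; KD libraries are red, NC libraries blue, and a line marks the mean of 3 libraries. The members lie at 1.08 to 8.54 CPM in KD and 69.2 to 199 in NC, while the 4 left-out receptors overlap between groups.

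The KD libraries also differed from NC in neuronal RNA. Omp, which marks mature olfactory neurons, had 24302, 149 and 33430 KD counts and 69388, 66437 and 61926 NC counts. The tissue's defining neuronal marker was thus almost absent from KD-2. The list of 25 mature neuron genes summed to 1310 to 9167 CPM in KD and 14504 to 23108 in NC. Of the 25, 23 (92.0%) had every KD library below every NC library, against 16.0% of all genes. Per 1000 Omp counts the members had 2.47 and 4.43 counts in KD-1 and KD-3, against 19.0 to 52.8 in the NC libraries. KD-2 gave 114 on this scale, from 17 member counts over 149 Omp counts. The KD mean was 119% of the NC mean per Omp count with KD-2 and 10.2% without it.

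Markers of other cell types also differed between libraries, some of them without overlap between the groups. The 5 horizontal basal cell markers summed to 658 to 896 CPM in KD and 179 to 504 in NC. The 6 sustentacular markers summed to 242 to 4879 CPM in KD and 5376 to 8007 in NC, with KD-2 lowest. The 4 plasma cell genes ran from 15495 to 22376 CPM in KD and from 4223 to 24534 in NC, and the 5 respiratory genes from 4096 to 22843 and from 5086 to 78023. The highest respiratory sums rest on 1 gene, Bpifb9b, with 15850 CPM in KD-2 and 76640 in NC-1. The 4 olfactory bulb neuron markers summed to 11.8 to 74.9 CPM in KD and 120 to 188 in NC. Of their NC mean of 145 CPM, Cdhr1 alone made up 131. Tbx21 went the other way, with means of 2.18 CPM in KD and 1.05 in NC and overlap between groups. The 5 erythroid genes summed to 76.7 to 1521 CPM in KD and 74.2 to 912 in NC. The 9 immature neuron genes summed to 145 to 766 CPM in KD and 837 to 1117 in NC. None of these lists had its summed level at 0 in any library. Their part in the class I result was not tested.

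No member passed the test for single genes. With edgeR's quasi-likelihood test and Benjamini-Hochberg adjustment over 18444 genes, 0 of the 37 members that passed the filter on low counts were called, as were 0% of all tested genes in that direction, at a smallest adjusted p of 0.28 for the members. Those 37 passed the filter through their NC counts alone, so that they had to be lower in KD, and 77 members were too low to enter. Their values are a description and support nothing. Unadjusted edgeR p-values were under 0.05 for all 37, and for 3310 of all tested genes, 1706 of them lower and 1604 higher in KD. The fitted log2 fold changes of the 37 ran from -7.91 to -1.94, with a median of -5.32, against 0.01 over all tested genes. DESeq2 on the same counts called 31 of the 37 lower, beside 1.07% of all genes with an adjusted p, and limma-voom called 0. In a fit without a filter, which took in all 114 members, every one had a log2 fold change below 0 (median -4.89, all genes -0.01). There edgeR gave an unadjusted p under 0.05 with a lower KD level for 98 members, or 86.0%, against 7.12% of 31319 genes and 29.4% of receptor genes outside the cluster. Again none was called after adjustment (smallest adjusted p = 0.33 by edgeR). With members of 3 or fewer KD counts set at 3 counts, the median log2 ratio of pooled rates was -3.80 over members with more than 3 NC counts, and -1.68 over 976 receptors outside the cluster treated the same way.

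Gene by gene, 94 of the 114 members had every KD library below every NC library in CPM, which is 82.5%, against 16.0% of all genes and 514 of 1050 receptor genes outside the cluster. Of the 20 members that overlapped, 15 had fewer than 30 NC counts in all, and 15 had a count of 0 in at least 1 NC library. No member had every KD library above every NC library. In the authors' deposited table, 95 of the 114 members had an unadjusted p under 0.05, all with a negative log2 fold change, where 7.87% of genes had such a p and a lower KD level. Of the 100 genes with the smallest p there, among 31241 with a p, 62 were olfactory receptors, 35 of them members. Members are 114 and olfactory receptor genes 1180 of the 31319 genes.

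Many members had no KD count at all. Of the 114 genes, 49 had 0 counts over the 3 KD libraries, 42 had 1 to 3, 23 had more than 3 and 4 had 10 or more. A count of 0 in a KD library allows up to 3 counts, or 0.171 to 0.191 CPM. Of 79 members with at least 30 NC counts, 57 (72.2%) had 0 to 3 KD counts, against 36 of 800 receptors outside the cluster (4.50%). Members were lower in NC, with 6770 NC counts over 114 genes against 219299 over the 1050 receptors outside. A fixed cut at 3 KD counts was therefore easier for members to meet. For the same 79 members the median level in KD-1 and KD-2 was 0% of the NC mean, and in KD-3 2.65%. The 800 receptors outside had medians of 32.5% in KD-1, 0% in KD-2 and 48.2% in KD-3. None of the 79 members exceeded 50% of its NC mean in any KD library, the highest being at 40.3% in KD-3, while 192 of the 800 did in KD-1 and 387 in KD-3. The choice of members partly fixed these contrasts. The 4 left-out receptors had at least 30 NC counts each, and Olfr571 stood at 8.31 CPM in KD-3 against an NC mean of 3.94. No receptor outside the cluster was removed for its KD counts.

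**Figure D2:**
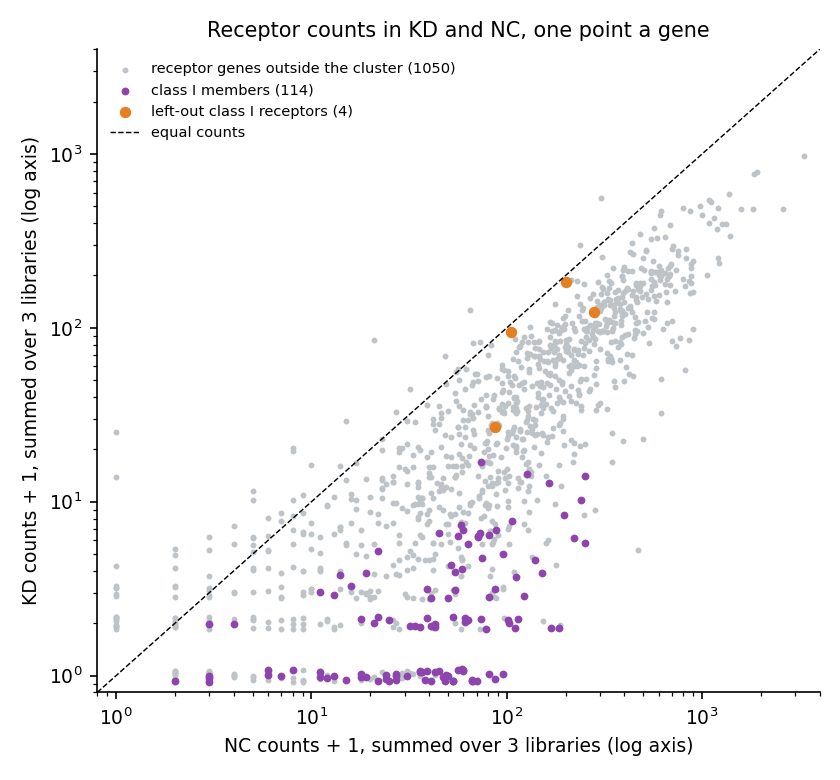
KD counts against NC counts of each receptor gene, summed over 3 libraries, both with 1 added and on log axes, with a small vertical jitter so that equal values can be seen; grey points are 1050 receptor genes outside the cluster, purple the 114 class I members and orange the 4 left-out class I receptors. Of the 114 members, 91 lie at 0 to 3 KD counts, and the 5 members with the most NC counts have 5 to 14.

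Among the members with the most NC counts, Olfr598 (chromosome 7, 103323568 to 103329888) had 0, 0 and 5 KD counts and 84, 113 and 54 NC counts. Its mean was 0.0962 ± 0.167 CPM for KD and 4.93 ± 1.64 CPM for NC (SD, n = 3 each), which the fit put at -5.44 on the log2 scale (SE 1.01, edgeR adjusted p = 0.28). Its KD counts all came from KD-3. Olfr653 (104577314 to 104584117) had 3, 0 and 11 counts against 81, 123 and 46, a log2 fold change of -4.04 (SE 0.933). With 11 counts in KD-3, it was the only member to reach 10 counts in any KD library. Olfr665 (104878031 to 104882906) had 3, 0 and 6 counts against 80, 118 and 42, and Olfr672 (104995760 to 105002029) had 1, 0 and 4 against 83, 105 and 31. In all of these receptors the lowest NC library, NC-3, was well above the highest KD library.

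Olfr685 (105178416 to 105186012) and Olfr578 (102981608 to 102989324) were the high members that came closest to vanishing. Olfr685 had 0, 0 and 1 KD counts and 70, 85 and 28 NC counts, a ratio of pooled rates of 182 (95% exact interval 32.3 to 7235, counting error alone). Olfr578 had 0, 0 and 1 counts against 25, 106 and 36, a ratio of 166 (29.4 to 6606). Olfr620 had 2, 0 and 1 counts against 40, 87 and 23, and Olfr592 had 0, 0 and 4 against 58, 64 and 17. The NC libraries themselves differed by several fold for some of these genes, as the 25 to 106 counts of Olfr578 show.

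Of the 26 members with at least 30 NC counts and no KD count, the 4 with the most NC counts are given here, for which only a bound can be stated. Olfr669 had 33, 44 and 18 NC counts and was at least 31.5-fold lower in KD, with 3 counts over the group as the floor. Olfr635 had 19, 56 and 11 NC counts (at least 28.5-fold lower), Olfr601 27, 33 and 20 (at least 26.5-fold) and Olfr661 24, 36 and 9 (at least 22.9-fold). Their bounds are set by depth, since no KD library held a read.

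**Figure D3:**
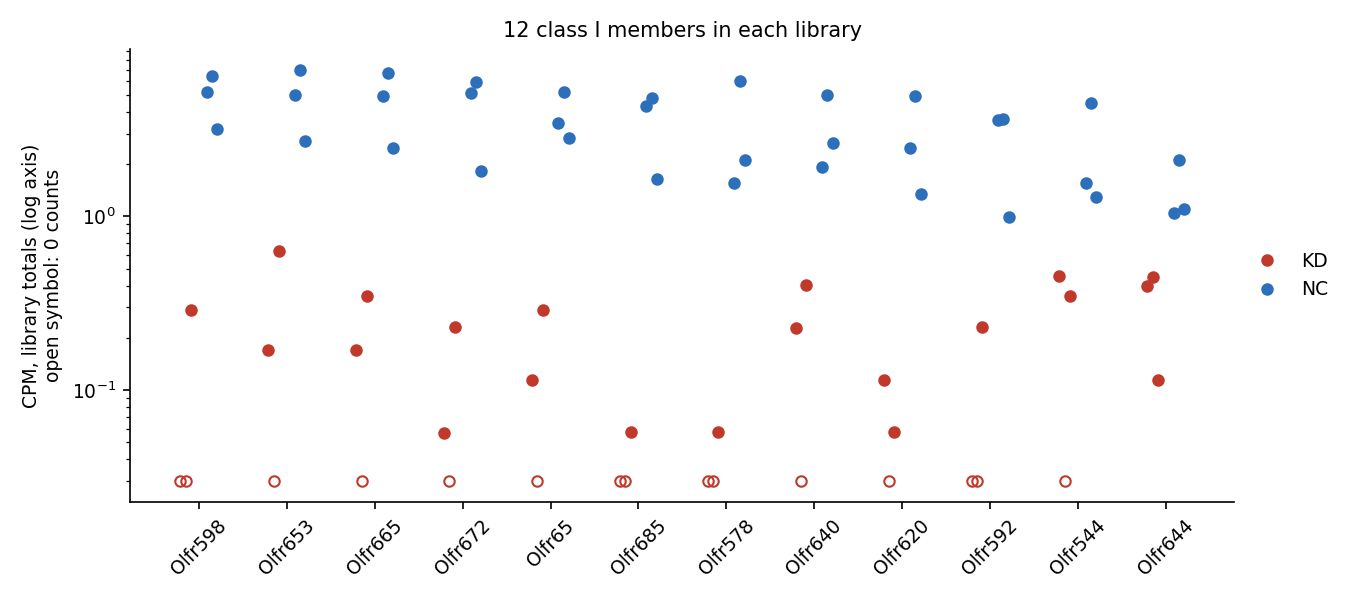
CPM scaled to library totals (log axis) of 12 class I members by library (red, KD; blue, NC); open symbols at the bottom stand for 0 counts. For each of the 12 genes every KD value lies below every NC value, and Olfr544 and Olfr644 have the smallest distance between the groups.

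The members that kept the most KD counts were Olfr644 with 16, Olfr544 and Olfr653 with 14 each, Olfr640 with 11, Olfr665 with 9 and Olfr65 with 7 (as many as Olfr545), in all 71 of the 225 KD counts (31.6%). Olfr544, which is known to respond to azelaic acid, a dicarboxylic acid, had 8, 0 and 6 KD counts and 25, 79 and 22 NC counts. Its fitted value on the log2 scale was -3.00 (SE 0.922, edgeR adjusted p = 0.28). Olfr640 had 4, 0 and 7 counts against 31, 88 and 45. Olfr644 (104066289 to 104071869) had 7, 7 and 2 counts against 17, 37 and 19, a log2 fold change of -1.94 (SE 0.604), the smallest among the tested members. Unlike Olfr544 and Olfr640, it was as high in KD-2 as in KD-1.

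KD-2, the library with almost no neuronal marker RNA, had its 17 member counts at 2 places in the cluster. Olfr642, Olfr644, Olfr645 and Olfr646, neighbours between 104046529 and 104109766, gave 1, 7, 1 and 4 of them. Olfr543 and Olfr545, at the start of the cluster, gave the remaining 1 and 3. Olfr646 had 2, 4 and 0 KD counts and 11, 36 and 25 NC counts. For the 7 members from Olfr639 to Olfr646 the sums were 0.853, 0.828 and 0.751 CPM for KD, a sum that KD-2 did not lower. Within these 7, Olfr640 had 4, 0 and 7 KD counts and Olfr639 1, 0 and 4, so the level sum rests on Olfr644 and Olfr646. Both places were picked for their KD-2 counts, and no test was made of them.

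KD-1 and KD-3 shared part of their detected members. At least 1 count was found for 28 members in KD-1 and 54 in KD-3, of which 18 were the same genes, 64.3% of the first list and 33.3% of the second. In NC-1 to NC-3 the detected members numbered 110, 111 and 102. With 10 or more counts there were 78, 91 and 41 members in NC-1 to NC-3, 0 in KD-1 and KD-2, and 1 in KD-3. Across members, KD counts and NC counts had a Spearman correlation of 0.51 over 114 genes, a description in which gene length and sharing of reads between similar genes enter both sides.

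Within NC the members varied both between genes and between libraries. The NC counts of a member, summed over 3 libraries, ran from 1 to 251 with a median of 48.5. The 10 highest members held 28.9% of the NC counts, and 25 members were needed to reach 50% of them. NC-2 was the highest NC library for 85 members and NC-3 the lowest for 88, so the libraries differed for the cluster as a whole. Spearman correlations between NC libraries across the 114 members were 0.79 (NC-1 with NC-2), 0.65 (NC-1 with NC-3) and 0.78 (NC-2 with NC-3).

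Per kb of annotated exon, Olfr672 was the highest member, at 2.89 ± 1.47 CPM per kb in NC (SD, n = 3), followed by Olfr598 at 2.43 ± 0.809, Olfr665 at 1.44 ± 0.650, Olfr568 at 1.33 ± 1.06 and Olfr65 at 1.31 ± 0.424. Olfr598 and Olfr665 differ by more than either SD, and the other neighbours in this order by less. Olfr549 had the steadiest level among the leading members, with 32, 36 and 34 NC counts and 1, 0 and 0 KD counts. The median member stood at 0.288 CPM per kb in NC, against 0.649 for receptor genes outside the cluster.

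Members were low in KD along the whole cluster. In runs of 20 neighbouring members from Olfr543 onward (14 in the last run), the KD mean was 4.20%, 2.22%, 2.97%, 5.46%, 2.84% and 2.19% of the NC mean. The fourth run, from Olfr630 to Olfr648, held Olfr644 and its neighbours and was the highest over members alone. The left-out Olfr556, Olfr558 and Olfr571 lie within the first run and had 28, 92 and 197 KD counts, against 45 for its members. Olfr686 lies within the sixth run and had 132, against 19 for its members. The evenness and order of the runs thus depend on leaving these receptors out. The NC means of the runs lay between 16.7 and 29.1 CPM. All runs come from the same 3 NC libraries, and the fifth run was above the sixth in each of them, at 33.0, 39.0 and 15.1 CPM against 17.9, 25.6 and 6.51. Genes on the plus strand stood at 2.99% of NC and those on the minus strand at 3.61%. Olfr543, Olfr544 and Olfr545, the first 3 genes, stood together at 8.92%, with 12, 4 and 10 KD counts and 50, 195 and 48 NC counts.

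**Figure D4:**
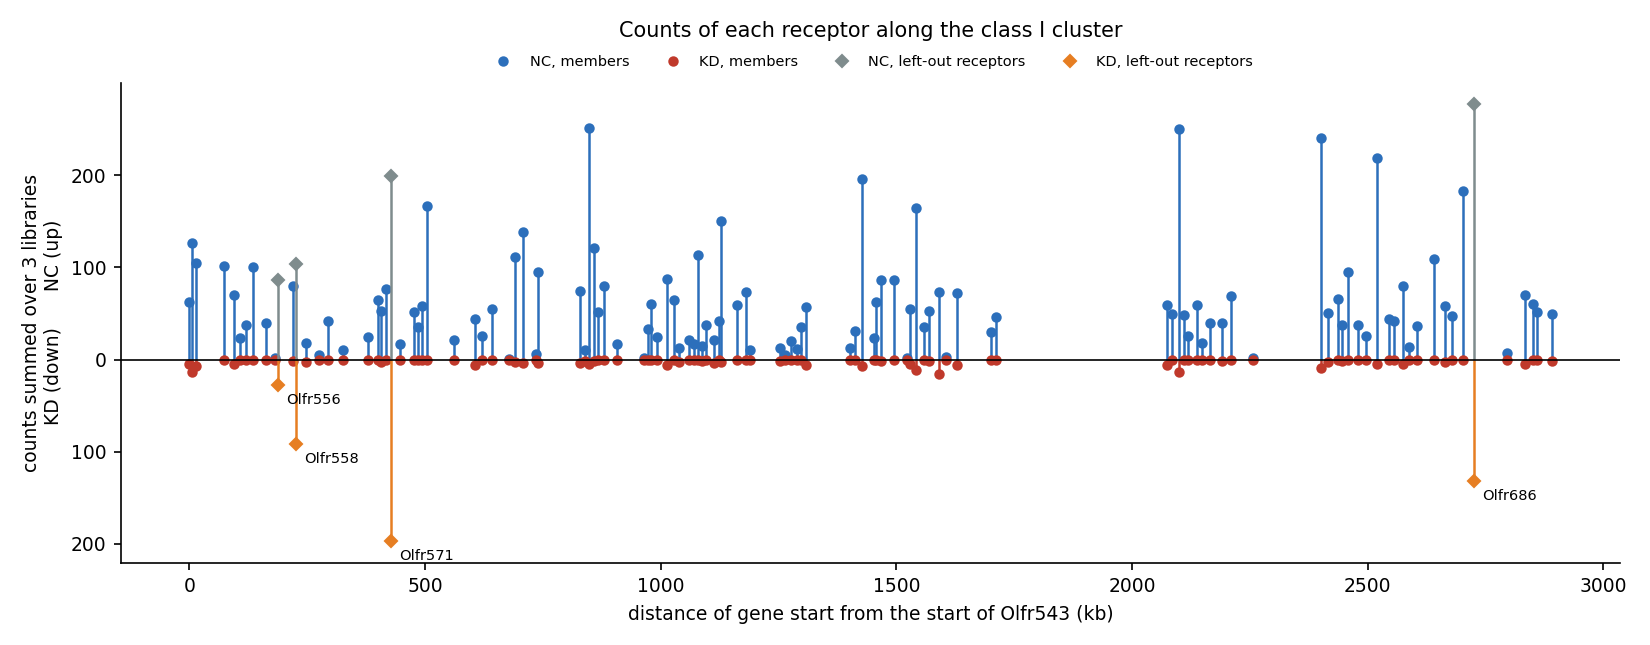
Counts of each receptor along the cluster, summed over 3 libraries, against the distance of its start from the start of Olfr543 in kb; NC counts point up, KD counts down, with circles for members and diamonds for the 4 left-out receptors. KD counts of members stay at 16 or below along the whole 2.89 Mb, while the left-out receptors reach 197.

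The 6 members around the beta-globin genes summed to 2, 0 and 13 KD counts and 105, 168 and 69 NC counts, without overlap. Olfr65 had 2, 0 and 5 KD counts and 56, 92 and 48 NC counts (log2 fold change -4.62, SE 0.762, edgeR adjusted p = 0.28). Olfr67 had 0, 0 and 6 counts against 23, 30 and 4, and its groups overlapped, KD-3 lying above NC-3. Olfr68 had 0, 0 and 1 counts against 8, 20 and 7, and Olfr64 0, 0 and 1 against 9, 20 and 2. Olfr66 and Olfr69 had no KD count, against 12 and 11 NC counts. The globin genes between them varied within both groups, Hbb-bs from 651 to 14382 counts in KD and from 607 to 8661 in NC.

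The annotated start sites of most members differ between sources. RefSeq (GRCm38.p6) gave a promoter window for 97 members, of which 72 start at an ATG, that is, at the coding sequence. In 6 windows the start lies within 50 bases of the GENCODE start and not at an ATG. The 250 bases before the start are shown for the 3 of these with the most NC counts. They come from the start of the cluster and from either side of the beta-globin genes: Olfr544 (chr7:102488308-102488557, minus strand, 14 KD and 126 NC counts), Olfr67 (chr7:103791831-103792080, minus strand, 6 and 57) and Olfr64 (chr7:103894472-103894721, minus strand, 1 and 31). They run 5′ to 3′, with matches to 3 homeodomain-type motifs in capitals. One motif searched was TAATTA, a palindrome. The others were the motif TAATTG and the motif TAATGA, on both strands.
Olfr544: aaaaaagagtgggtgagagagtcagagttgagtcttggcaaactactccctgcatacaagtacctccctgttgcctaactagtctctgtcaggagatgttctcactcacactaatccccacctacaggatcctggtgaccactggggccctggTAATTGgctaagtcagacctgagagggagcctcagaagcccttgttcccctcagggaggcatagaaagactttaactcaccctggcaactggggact
Olfr67: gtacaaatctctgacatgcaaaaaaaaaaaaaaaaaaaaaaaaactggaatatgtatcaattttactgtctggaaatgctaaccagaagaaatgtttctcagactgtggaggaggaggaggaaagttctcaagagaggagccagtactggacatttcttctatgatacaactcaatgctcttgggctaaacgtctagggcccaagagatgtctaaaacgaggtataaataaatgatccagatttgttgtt
Olfr64: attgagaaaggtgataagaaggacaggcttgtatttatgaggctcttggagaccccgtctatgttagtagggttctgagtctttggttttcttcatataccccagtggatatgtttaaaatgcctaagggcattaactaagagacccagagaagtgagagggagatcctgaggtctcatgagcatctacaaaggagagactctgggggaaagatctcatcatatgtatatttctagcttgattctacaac
Olfr544 holds 1 match, to TAATTG, 97 bases before the start, and the windows of Olfr67 and Olfr64 hold no match to these letters. Of the 6 windows, 2 hold TAATTG, 1 holds TAATGA and 0 hold TAATTA, too few for a comparison. Over the 97 member windows the shares were 20.6%, 27.8% and 16.5%, over 843 windows of other receptors 23.6%, 28.9% and 19.0%, and over 32851 windows of all genes 8%, 9.78% and 5.29%. Palindromic Ebf motifs, with a spacer of 2 or 3 bases and searched on both strands, had no match in any of the 97 windows, most of which precede a coding start, against 0.904% and 0.831% of all windows.

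The ends of the cluster and the remaining members chosen by rule gave similar values. Olfr543, the first gene, had 2, 1 and 2 counts against 11, 45 and 6, and Olfr692, the last, had 0, 0 and 2 against 19, 29 and 1. Olfr690 (105328225 to 105334104) had 1, 0 and 0 counts against 16, 31 and 13, a log2 fold change of -5.31 (SE 0.851). Among members with at least 30 NC counts, 5 overlapped between groups. They included Olfr584 (0, 0 and 6 against 15, 27 and 2) and Olfr677 (0, 0 and 5 against 35, 43 and 2). In Olfr584, Olfr677, Olfr67 and Olfr692 the overlap was between KD-3 and NC-3.

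The 4 left-out receptors behaved otherwise, as their choice implies. Olfr571 had 53, 0 and 144 KD counts and 84, 69 and 46 NC counts, with KD-3 above every NC library. Olfr686 had 44, 0 and 88 against 116, 93 and 68, and Olfr556 3, 0 and 25 against 9, 57 and 20. Olfr558, a receptor also known from blood vessels, had 36, 25 and 31 against 35, 38 and 31, and was the only one of the 4 detected in KD-2. They held 449 KD counts, against 225 for the 114 members, and 666 NC counts. With them put back, the summed KD level of the cluster was 8.93% of NC in place of 3.28%, and still 94 genes had every KD library below every NC library.

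Receptor genes in the cluster that the rule did not take, because of their number or a pseudogene suffix, were also low. Olfr33 (102712151 on chromosome 7) had 0, 1 and 1 KD counts and 18, 18 and 10 NC counts, a log2 fold change of -4.15 in the edgeR fit (adjusted p = 0.28). Olfr588-ps1 had 0, 0 and 1 against 13, 25 and 3, Olfr587-ps1 0, 0 and 0 against 7, 25 and 4, and Olfr243 0, 0 and 1 against 2, 5 and 1. Olfr78, known from the carotid body and blood vessels as well as from the nose, had 5, 9 and 11 against 16, 47 and 15, with KD-2 no lower than KD-1. The 12 genes of this kind summed to 14.1% of NC in KD, and 6 of them had groups that did not overlap. Olfr78 alone held 25 of their 33 KD counts, but 78 of their 238 NC counts, so the 14.1% rests mostly on it.

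Most genes of other families inside the cluster did not share the drop. Of 31 such genes, 2 (6.45%) had every KD library below every NC library, against 16.0% of all genes. These were Gm15120, with 0, 0 and 0 KD counts against 3, 18 and 3, and 4930516K23Rik, with 0, 0 and 0 against 4, 8 and 2. In 3 of the 31 every KD library lay above, as in 2181 of 31319 genes. The 18 tested genes, which leave out those 2, had a median log2 fold change of 1.22. In the fit without a filter, 9 of the 31 were below 0. Trim30a, one of the Trim genes in the widest gap, had 2076, 1008 and 1631 KD counts and 98, 638 and 889 NC counts. Other Trim genes of this gap differed strongly between libraries of the same group. Trim12a had 677, 2 and 597 KD counts and 73, 1 and 2 NC counts. Trim34b had 3, 195 and 8 KD counts and 22, 195 and 128 NC counts, with KD-2 the highest of KD. The cause of these library differences was not tested. Receptors within 2 Mb on either side of the cluster stood at 46.0%, 0.258% and 55.8% of the NC mean in KD-1 to KD-3, close to receptors outside the cluster in general. Their 23 tested genes had a median log2 fold change of -1.52.

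Dorsal zone genes differed among themselves. Of the 6 on the list, 4 (66.7%) had every KD library below every NC library, against 16.0% of all genes. In 1, every KD library lay above, as in 2181 of 31319 genes, and none of the 6 passed the test. Nqo1, a quinone reductase of dorsal neurons, had 199, 110 and 350 KD counts and 876, 1374 and 847 NC counts (log2 fold change -2.12, SE 0.340, edgeR adjusted p = 0.28). Robo2, an axon guidance receptor, stood at 30.9, 9.17 and 37.6 CPM in KD against 71.8, 68.8 and 44.3 in NC (log2 fold change -1.16, SE 0.454). Sema3f, an axon guidance ligand, was the gene that lay higher in KD, with 2612, 2862 and 2482 counts against 1032, 2159 and 2237 (log2 fold change 0.76, SE 0.313). Acsm4, an acyl-CoA synthetase of dorsal neurons, had 526, 6 and 599 counts against 2824, 2566 and 2144. The dorsal list summed to 234 to 309 CPM in KD and 426 to 521 in NC, without overlap, with 4 of 6 genes below 0. The ventral list summed to 253 to 301 CPM and 277 to 337, with overlap and 4 of 7 below 0. Of these 7, 2 had every KD library below every NC library (Ncam2 and Nrp2) and 1 every KD library above (Alcam). Ncam2 averaged 11.1 CPM in KD and 33.2 in NC, Nrp2 81.2 and 111, and Alcam 118 and 74.9. Sema3f alone was 158 of the dorsal KD mean of 277 CPM. The sums therefore do not show how single genes of a list changed. The trace amine receptors, a small receptor family expressed in dorsal neurons, summed to 22.5%, 3.28% and 42.7% of the NC mean in KD-1 to KD-3. Of the 12 trace amine receptors in the table, 6 were tested, each with a log2 fold change under 0 (median -1.99), and 8 of the 12 did not overlap. The part of zone in the class I result was not tested.

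Among 23 genes of receptor choice and expression, 0 passed the test and 20 were below 0 in the fit (median log2 fold change -0.81). Tet3, a methylcytosine dioxygenase, had the smallest p of the list and lay higher in KD, with 1336, 1228 and 1562 KD counts and 391, 832 and 852 NC counts (log2 fold change 1.17, SE 0.269, edgeR adjusted p = 0.28). Bcl11b had 578, 190 and 671 KD counts and 864, 1270 and 910 NC counts (log2 fold change -0.99, SE 0.353, edgeR adjusted p = 0.28). Lbr, the lamin B receptor, had 1007, 746 and 703 against 422, 715 and 678 (log2 fold change 0.62, SE 0.231). Lhx2, a homeodomain factor that acts on receptor enhancers, had 1128, 14 and 1928 against 3701, 3441 and 3235, with KD-2 lowest by far. Ldb1, its cofactor, had 2079, 1929 and 3015 against 2415, 3113 and 3120, with overlap between groups.

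Similar genes can share reads. The longest GENCODE transcript of each member was aligned to all other olfactory receptor transcripts, and 33 of the 114 members had a match of 95% identity or more over at least 150 bases, 19 of them to another member. Olfr598 and Olfr597 are 98.1% identical over 947 bases, yet Olfr597 had 0, 0 and 2 KD counts and 10, 0 and 0 NC counts. Olfr544 and Olfr545 are 96.4% identical over 1039 bases, and their counts are uncertain between them. Without the 33 members the KD mean was 2.89% of the NC mean, and 69 of the other 81 members (85.2%) had groups that did not overlap.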

How the data were processed

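Raw read counts of 6 libraries were analysed, 3 KD and 3 NC, with totals of 15704791 to 17618540. The authors deposited counts per gene, a signal column with their mean of normalised counts, a log2 fold change and an unadjusted p-value, per the file headers. The submitters' processing notes name GRCm38, HISAT2 2.1.0, Bowtie2 2.2.3, TopHat2, HTSeq 0.6.0, DESeq2 and DESeq. The counting annotation and the strand setting go unstated there, and reads of overlapping genes cannot be told apart. CPM in the text are counts over library totals, and levels per length use the union of GENCODE M21 exons. The test for single genes was edgeR 4.0.16 (R 4.3.3; TMM, default filter, quasi-likelihood, two-sided, Benjamini-Hochberg over all genes, threshold 0.05). The replicate numbers were not used as a pairing. DESeq2 1.42.0 (adjusted p missing for 54 genes), limma 3.58.1 (voom) and other settings were alternatives. Scripts were tested on simulated counts. Transcripts were aligned with blastn 2.17.0. Reads carry no molecular identifiers, so exact intervals and floors of 3 counts cover counting error only. The 4 left-out receptors, the members and the lists were chosen with earlier results of these data known. Members named are the 10 with most NC and 6 with most KD counts, Olfr64 to Olfr69, the ends, Olfr544, Olfr690, up to 4 with 0 KD counts and up to 4 that overlap, and for lists up to 3 genes of smallest p. Olfr549, Olfr568, Olfr597, Olfr642, Olfr645, Olfr646, Olfr33, Olfr78, Olfr639, Trim30a, Hbb-bs, Acsm4, Lhx2, Ldb1 and the genes of the promoter windows were named after their values were seen. So were Ncam2, Nrp2, Gm15120 and 4930516K23Rik.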

Additional observations from a re-analysis of the deposited data

How the results depend on the processing

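Under the 14 alternative fits, all 16 named tested members kept a log2 fold change below 0, and only DESeq2 called any of them. DESeq2 called 347 genes and 31 members, where edgeR called 0 of each. Without both KD-2 and NC-1 edgeR called 3 genes and 0 members. The members' median log2 fold change was -4.36 with a covariate for mature neuron genes, -5.23 with the replicate number as a block, and -7.18 to -4.94 when single libraries were left out, the lowest without KD-3. Deviations of KD and NC libraries of the same number had correlations of 0.31, 0.1 and -0.26, and KD-2 with NC-3 had 0.35. With 3 libraries a group these values cannot settle whether the numbers pair the libraries. The block called 0 genes, as did the main fit. The summed KD level, 3.28% of NC, was 1.70% without KD-3 and at most 4.52% without any other single library. It was 20.2% per count of all receptors, 119% per Omp count and 8.93% with the 4 left-out receptors. Without KD-2, chosen after seeing the data, it was 9.88% per receptor count and 10.2% per Omp count. The count of 94 members without overlap ran from 84 per receptor count to 106 without NC-3. Of the left-out receptors, Olfr571 turned above 0 with the covariate (2.64), without both libraries (0.88) and without some single libraries (up to 0.57; -1.25 without KD-3), Olfr558 without both libraries (0.07) or some single ones (-0.11 to 0.05), and Olfr556 (0.02) and Olfr686 (1.41) with the covariate. The cause of these shifts was not tested. Member counts of 0 limit folds to bounds.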
